A study of Cucumis sativus with 6 samples.

Results

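Histone mRNAs were followed in young cucumber fruits. The genes were those whose product description, read before any list of protein domains and with case ignored, names histone H1, H2A, H2B, H3 or H4 and contains none of the words transferase, lysine and demethylase. This gave 32 genes of the 21317 in the deposited table: 3 genes for H1, 10 for H2A, 7 for H2B, 5 for H3 and 7 for H4. The H1 genes carry the description "Histone h1/h5, putative", and the others are named only by class, so no member is assigned here to a variant such as a centromeric or replacement histone.

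The fruits came from Cucumis sativus inbred line 'YB' after self-pollination, in a study whose title concerns candidate genes for astringency. Peel was sampled at 3, 6 and 9 days and flesh at the same 3 days, with 1 library per tissue and day and 3 fruits mixed in each of the 6 libraries. All libraries share the line and the pollination, and no label gives a treatment. Dissected peel and flesh each hold several cell types, and mixing fruits hides the spread between them.

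Core histones H2A, H2B, H3 and H4 form the protein spool around which DNA is wrapped, and the linker histone H1 binds the DNA where it enters and leaves the spool. Most core histone mRNA is made while DNA is being copied, so that new chromosomes can be packaged, and plant histone mRNAs carry poly(A) tails, so that preparations made from mRNA contain them. Some histone variants are made outside of DNA replication as well. A cucumber fruit goes through a phase of cell division after pollination and then grows mainly by cell enlargement.

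Levels were read as FPKM, which counts the fragments of a gene relative to its length and to the depth of the library, so that long and short genes can be compared. The reads assigned to genes numbered between 14899922 (peel, day 9) and 23740219 (flesh, day 6). In a principal component analysis of log2(FPKM + 1) the leading component held 51.8% of the variance, and along it the peel library of day 9 lay at -124 and the other 5 between -36.6 and 79.6. The peel label was checked on 25 tested genes of cuticle, wax and YABBY transcription factors. Their median peel minus flesh difference was 1.26 on the log2 scale, and 3 of them were higher in peel in the test described below. The difference was positive in 17 and negative in 8, among them the most abundant, the YABBY gene Csa6G426940, at -0.19. By day the median was 0.39, 0.47 and 2.00 at days 3, 6 and 9. Markers of other cell types were summed over 31 phloem and xylem genes, 55 seed and ovule genes, 51 genes of photosynthetic cells and, for handling, 57 heat shock genes, of which 1 seed and ovule gene was at 0 in all libraries. Phloem and xylem markers summed to 12603, 8832 and 14651 in peel at days 3, 6 and 9 and to 1507, 5027 and 18131 in flesh, and seed and ovule markers to 2408, 1954 and 5388 in peel and 1911, 1622 and 4180 in flesh. Markers of photosynthetic cells summed to 4081, 2740 and 2177 in peel and 3711, 3415 and 2616 in flesh, and heat shock proteins to 1636, 1501 and 1782 in peel and 1426, 1616 and 1532 in flesh. Seed and ovule markers were thus highest at day 9 in both tissues, and photosynthetic markers lowest. The part of these shifts in the histone values was not tested.

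Histone genes were abundant in these fruits. Over the 6 libraries 28 of the 32 averaged at least 5 FPKM and 27 at least 50 FPKM, and the median of the 31 tested members was 185 FPKM, against 15.1 FPKM over all 17265 tested genes. Summed over the 32 genes, histone mRNA came to 7862, 7367 and 3313 FPKM in peel at days 3, 6 and 9, and to 7123, 6503 and 3830 FPKM in flesh. Of all FPKM this was 1.21%, 1.18% and 0.448% in peel, while flesh had 1.24%, 1.03% and 0.543%. The 2 day 9 libraries lay below the 4 earlier ones, and days 3 and 6 lay close together in both tissues. The day 9 sum was 42.1% of the day 3 sum in peel and 53.8% in flesh. In whole tissue, fewer cells that make histone mRNA and less histone mRNA per cell cannot be told apart. The 28 genes of at least 5 FPKM had between 113 and 13353 reads in a library, so counting error is small for them, and the difference between fruits cannot be estimated from mixed libraries.

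**Figure D1:**
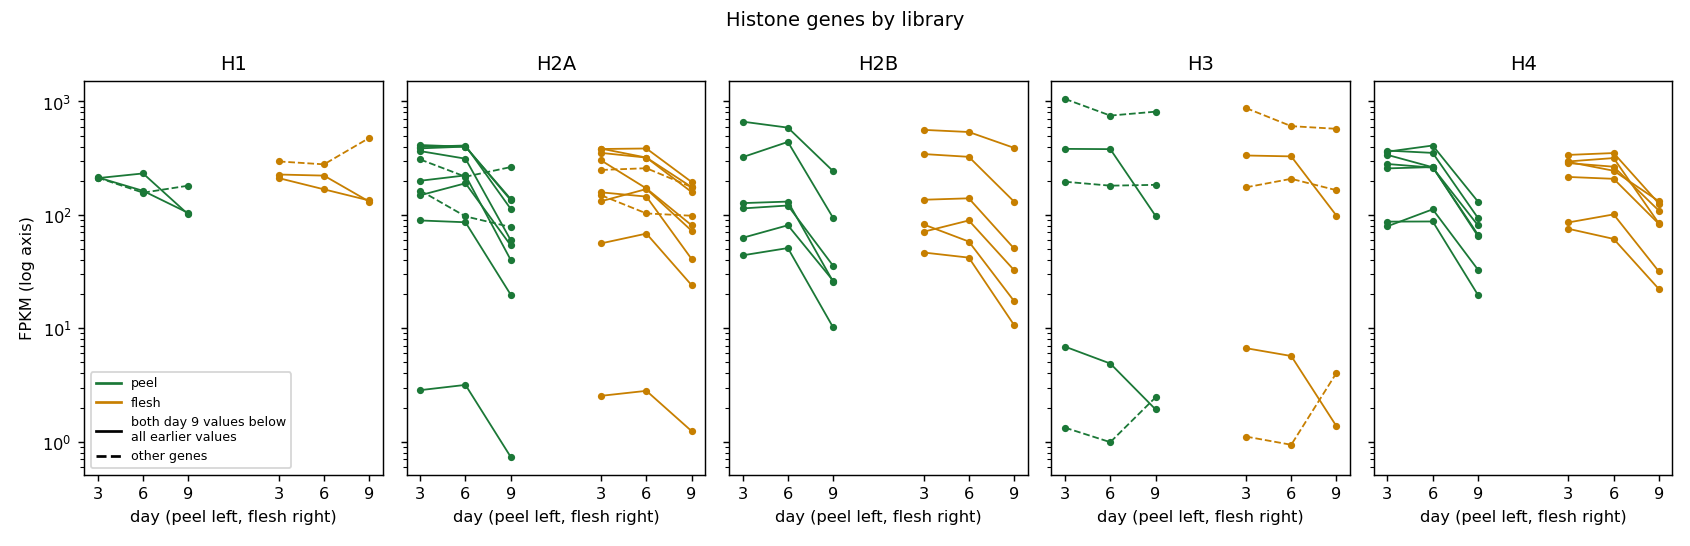
FPKM (log axis) of the 31 histone genes that averaged 1 FPKM or more, at days 3, 6 and 9, peel in green on the left of each panel and flesh in orange on the right, with 1 point per library. Solid lines mark the 25 genes whose 2 day 9 values lie below all 4 earlier values, and dashed lines the other 6.

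The plot of the members by library shows the course gene by gene: nearly flat lines between days 3 and 6, lower values at day 9 in most H2A genes, in all tested H2B and H4 genes, in 2 of 5 H3 genes and in 2 of 3 H1 genes, and 6 genes, of H1, H2A and H3, whose days overlap or that were higher at day 9.

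Histone H4 genes followed one course, with fitted day 9 minus day 3 differences between -2.06 and -1.44 on the log2 scale. H4 is the core histone with the fewest variants, and its partner in the nucleosome is H3. The most abundant H4 gene, Csa1G084320, had 361, 409 and 131 FPKM in peel at days 3, 6 and 9, beside 338, 351 and 126 FPKM in flesh. Csa6G013960 had 369, 352 and 94 FPKM in peel, against 286, 266 and 109 FPKM in flesh. Csa6G193580 had 338, 263 and 67 FPKM in peel, beside 296, 317 and 84.1 FPKM in flesh. In all 3 genes the day 9 libraries of both tissues lay far below the other 4, without overlap. The remaining 4 genes, Csa6G191570, Csa6G191580, Csa6G192080 and Csa6G193590, had the same order, and over the 7 genes the day 9 level was between 19.8% and 41.5% of the day 3 level in peel and between 28.4% and 45.3% in flesh. Summed over the class, H4 mRNA stood at 1772, 1748 and 490 FPKM in peel, against 1590, 1549 and 588 FPKM in flesh.

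H2A and H2B, which enter the nucleosome as a pair, were lower at day 9 by class but less evenly by gene. The 3 most abundant H2A genes were close to each other in level. Csa1G481210 had 386, 400 and 135 FPKM in peel at days 3, 6 and 9, beside 381, 385 and 195 FPKM in flesh. Csa3G408540 had 413, 399 and 138 FPKM in peel, against 384, 320 and 176 FPKM in flesh. Csa2G030610 had 398, 409 and 113 FPKM in peel, beside 352, 320 and 159 FPKM in flesh. In each of them both day 9 values lay below all earlier ones, and the day 9 peel value below the day 9 flesh value. The most negative fitted difference of the class, -2.24 ± 0.37 (SE, limma, adjusted p = 0.0668), belonged to Csa2G225360, with 365, 313 and 59.9 FPKM in peel, against 302, 171 and 81 FPKM in flesh. Its day 9 over day 3 ratio was 0.164 in peel, with a 95% interval for counting error alone of 0.15 to 0.179, and 0.268 in flesh, with 0.25 to 0.286. Its step from day 3 to day 6 in flesh, -0.81 on the log2(FPKM + 1) scale, was the most negative of the class.

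Csa7G433390, also named histone H2A, followed another course, with 308, 217 and 264 FPKM in peel at days 3, 6 and 9, beside 249, 258 and 176 FPKM in flesh. Its day 9 peel value lay above its day 6 peel value, so the days overlap. Csa4G293870 had 164, 97 and 78.2 FPKM in peel, against 149, 103 and 98.3 FPKM in flesh, and its day 6 values lay nearer to those of day 9 than of day 3. These 2 genes have the longest gene spans of the class, 3956 and 2685 bases, where the other 8 span 801 to 2012 bases. Together they made up 19%, 13.4% and 37.9% of the class FPKM in peel, beside 18.4%, 18.6% and 26.7% in flesh. The pair was chosen after its values were seen, so the share is a description. Of the remaining 4 H2A genes, Csa7G390240, Csa1G572950 and Csa6G303770 had their lowest values at day 9 in both tissues, and Csa7G390230 did so at 0.735 FPKM in peel, against 1.24 FPKM in flesh, on 5 and 11 reads.

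Among the H2B genes Csa6G193620 was the most abundant, with 664, 588 and 243 FPKM in peel at days 3, 6 and 9, beside 562, 538 and 390 FPKM in flesh. It carried between 41.6% and 61.7% of the class FPKM, and its day 9 level in flesh, 69.4% of day 3, was the highest of the class. Csa1G132130 had 323, 440 and 94.1 FPKM in peel, against 344, 325 and 131 FPKM in flesh. Csa1G132680 had 114, 121 and 35.6 FPKM in peel, beside 136, 140 and 50.6 FPKM in flesh. Csa6G448180 had 127, 131 and 25.8 FPKM in peel, against 82.4, 58.2 and 17.4 FPKM in flesh, which is 20.3% of the day 3 level in peel and 21.1% in flesh at day 9. In these 4 genes, and in Csa1G132150 and Csa3G734930, both day 9 values lay below all 4 earlier values. The last H2B gene, Csa1G136770, had 1 read in the day 6 flesh library, 0.0493 FPKM, and none in the other 5 libraries, and it was not tested.

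Histone H3 was divided. Csa4G290220 followed the H4 genes, with 382, 380 and 98.1 FPKM in peel at days 3, 6 and 9, beside 334, 328 and 98.5 FPKM in flesh. Its day 9 over day 3 ratio was 0.257 in peel (95% counting interval 0.239 to 0.275) and 0.295 in flesh (0.277 to 0.314). Csa2G369110 had 196, 181 and 184 FPKM in peel, against 175, 208 and 165 FPKM in flesh, so its 6 libraries lay within a narrow range and the days overlapped. Its ratio was 0.937 in peel (0.863 to 1.02) and 0.944 in flesh (0.874 to 1.02), intervals that include 1. Csa4G026900, the most abundant histone gene of all, had 1053, 751 and 813 FPKM in peel, beside 875, 606 and 574 FPKM in flesh. It was highest at day 3 in both tissues, and its day 9 peel value lay above its day 6 values in peel and in flesh.

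Csa2G369110 and Csa4G026900 together made up 76.2%, 70.7% and 90.7% of H3 FPKM in peel, against 75.5%, 70.9% and 87.7% in flesh, a pair again chosen after its values were seen. The other 2 H3 genes were scarce. Csa7G328280, whose gene model spans 9521 bases, had 6.89, 4.89 and 1.93 FPKM in peel, beside 6.68, 5.7 and 1.37 FPKM in flesh. Csa1G392600, with a gene model of 325 bases, had 1.33, 0.991 and 2.46 FPKM in peel, against 1.11, 0.94 and 4.04 FPKM in flesh, from 2 to 6 reads a library. Its ratio of day 9 to day 3 had a counting interval of 0.248 to 13.8 in peel and 0.775 to 22.4 in flesh, so no difference was detectable at this depth.

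The 3 linker histone genes had similar levels at day 3 in peel and then parted. Csa2G010270 had 211, 232 and 101 FPKM in peel at days 3, 6 and 9, beside 227, 222 and 131 FPKM in flesh. Csa6G407650 had 214, 163 and 104 FPKM in peel, against 211, 168 and 134 FPKM in flesh. Both genes had their lowest values at day 9 in both tissues. Csa6G505280 had 213, 157 and 181 FPKM in peel, beside 296, 279 and 477 FPKM in flesh. Its highest library was day 9 flesh, and its 3 peel values all lay below its 3 flesh values. It made up 33.4%, 28.5% and 46.8% of H1 FPKM in peel, against 40.4%, 41.7% and 64.2% in flesh.

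**Figure D2:**
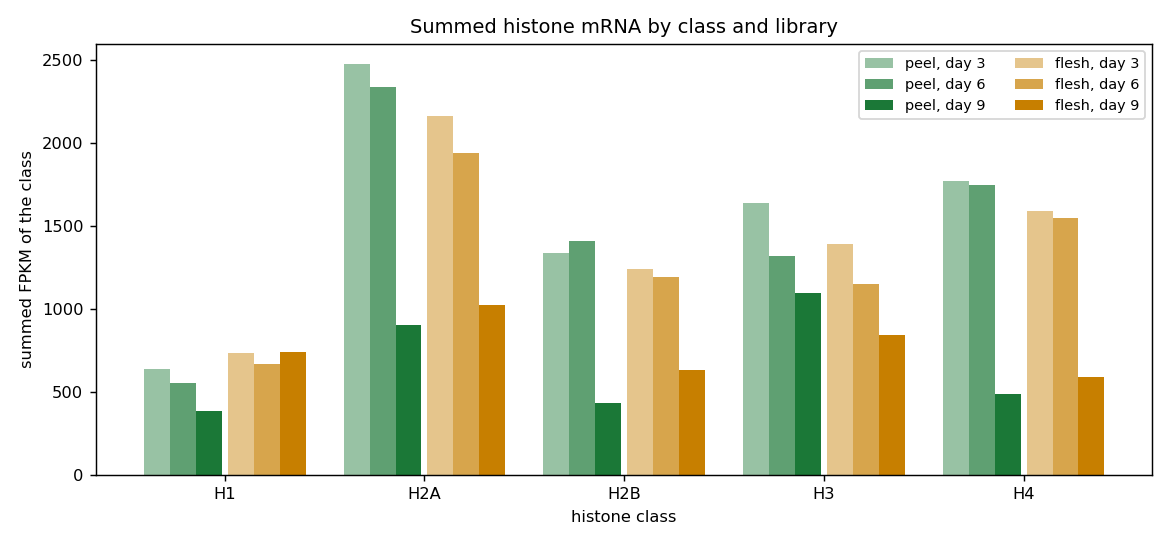
Summed FPKM of the genes of each histone class in each library, with bars starting at 0, peel in green and flesh in orange, darker for later days. H4 stands at 490 FPKM in peel, beside 588 FPKM in flesh at day 9, and H1 in flesh at 734, 669 and 742 FPKM over the 3 days.

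The classes stood at different parts of their day 3 level at day 9, as the bars of class sums show. Relative to day 3, the day 9 sum was 27.7% in peel and 37% in flesh for H4, and 32.6% in peel and 50.9% in flesh for H2B. It was 36.5% in peel and 47.3% in flesh for H2A, 67% in peel and 60.6% in flesh for H3, and 60.4% in peel and 101% in flesh for H1. H3 made up 22.7%, 19.3% and 37.6% of the core histone FPKM in peel at days 3, 6 and 9, against 21.8%, 19.7% and 27.3% in flesh. H4 made up 24.5%, 25.6% and 16.7% in peel and 24.9%, 26.6% and 19.1% in flesh. Linker histone FPKM, set against the core sum, came to 8.84%, 8.1% and 13.2% in peel and 11.5%, 11.5% and 24% in flesh. These shares are within single libraries and do not depend on how libraries are scaled to each other, but they carry no replicate check, and near-identical copies of a class may share reads.

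Day 9 was compared with day 3 in a limma model on log2(FPKM + 1), with tissue and day as terms, over the 17265 genes that averaged 1 FPKM or more. It takes the 2 tissues as the 2 observations of each day, so a real difference between the courses of peel and flesh counts as error. The median member was lower at day 9 by a log2 difference of -1.46, against 0.01 over all genes tested, and 29 of 31 members had a negative difference. The H1 gene Csa6G505280, positive at 0.22, turned to -0.02 when each library was rescaled to the same FPKM sum. No member passed an adjusted p of 0.05 (0%), nor did any other gene, with a smallest adjusted p of 0.0514 over all genes and 0.0568 among the members. At an unadjusted p under 0.05, 26 of the 31 members were lower at day 9 and none higher. Of all 17265 genes 13.6% were lower and 1949 genes higher at that threshold.

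The members with the smallest adjusted p in this fit came from every core class. The smallest unadjusted p belonged to Csa1G132150 (H2B), with a log2 difference of -2.01 ± 0.21 (SE, limma, adjusted p = 0.0568). Csa7G390240 (H2A) had -2.11 ± 0.24 (limma, adjusted p = 0.0568). Csa6G448180 (H2B) had -2.22 ± 0.24 and Csa4G290220 (H3) had -1.85 ± 0.21, both at the same adjusted p. Csa6G193580 (H4) had -2.06 ± 0.24 (limma, adjusted p = 0.0569). H1 did not come as close, with -0.92 ± 0.23 for Csa2G010270 (limma, adjusted p = 0.11), -0.84 ± 0.22 for Csa6G407650 (adjusted p = 0.121) and 0.22 ± 0.30 for Csa6G505280 (adjusted p = 0.674). Nor did the H3 gene Csa2G369110, at -0.09 ± 0.22 (limma, adjusted p = 0.828), or the abundant H3 gene Csa4G026900, at -0.49 ± 0.25 (adjusted p = 0.302).

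How many members are called depends on the tool. Quasi-likelihood tests in edgeR on reads recovered from the deposited values called 25 genes (0.145%) and no member, with 27 members lower at an unadjusted p under 0.05, where 13.4% of all genes were. DESeq2 on the same reads called 24 members lower at day 9 and none higher. Of all 17265 genes it called 8.45% lower and 1371 genes higher. Both count tests were added after seeing the data. With every library rescaled to the same FPKM sum, limma called 12 members and 538 genes, and the median over all genes moved to -0.22.

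Without a test, the separation of the days can be counted. In 25 of the 31 members both day 9 libraries lay below all 4 earlier libraries, as they did in 16.4% of all genes. The 6 others were Csa6G505280 (H1), Csa4G293870 and Csa7G433390 (H2A), and Csa1G392600, Csa2G369110 and Csa4G026900 (H3), and this list was read off the values. In the 25 genes the day 9 level was between 16.4% and 48.7% of day 3 in peel, with a median of 28.4%, and between 20.6% and 69.4% in flesh, with a median of 38.2%. Ranked by the fitted difference among all tested genes, 12 members lay in the lowest 5% and 21 in the lowest 10%.

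**Figure D3:**
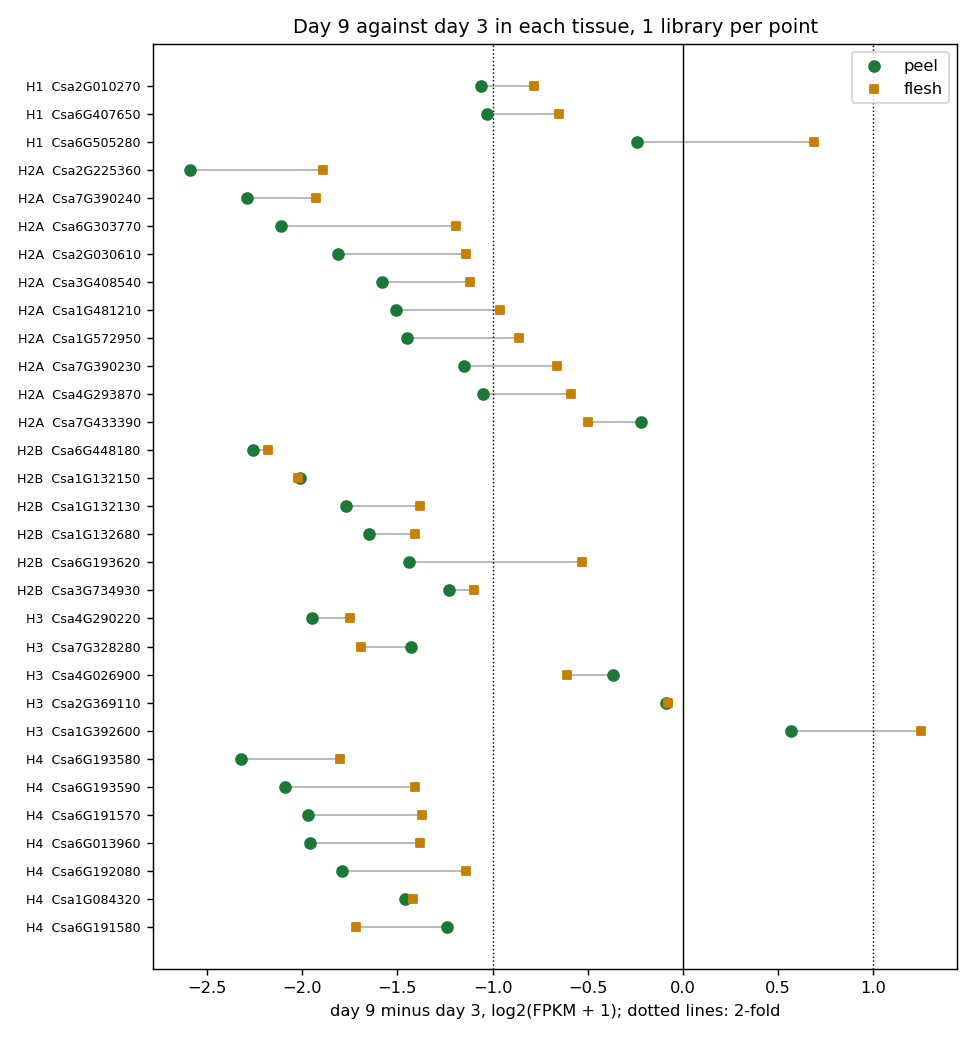
Day 9 minus day 3 on the log2(FPKM + 1) scale for each tested histone gene, with green circles for peel and orange squares for flesh, 1 library per point and no error, sorted within class by the peel value. Dotted lines mark 2-fold, and most points lie left of the lower one, with Csa6G505280 on opposite sides of 0.

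The plot of day 9 minus day 3 shows both tissues side by side. In peel 26 members were at least 2-fold lower at day 9 than at day 3, where 15.7% of all genes were, and none was 2-fold higher, where 14.6% were. In flesh 19 members were at least 2-fold lower, where 10.4% of all genes were, and 1, the scarce Csa1G392600, was 2-fold higher, where 11% were. The same 19 were lower in both tissues, as were 5.96% of all genes. The median member difference was -1.51 in peel and -1.14 in flesh, and 26 of the 31 members were more negative in peel, where 52.8% of all genes were. The signs were opposite in 1 member, Csa6G505280, at -0.24 in peel and 0.69 in flesh, and in 32.7% of all genes. The peel library of day 9 had the fewest reads and stood apart on the first component, and its part in this was not tested. Without that library the fitted day 9 minus day 3 median of the members was -1.10. The order of the tissues rested on single libraries: the median slope difference of the members, peel minus flesh per day, was -0.08 with all libraries, 0.18 without peel day 9, 0.11 without flesh day 3 and -0.35 without peel day 3.

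The steps between days were uneven. Between days 3 and 6 no member moved 2-fold either way in peel, where 9.97% of all genes did, nor in flesh, where 10.5% did. The median step was -0.01 in peel and -0.08 in flesh. Between days 6 and 9, 24 members were at least 2-fold lower in peel, where 11.2% of all genes were, and 18 in flesh, where 7.37% were. In flesh 1 member, again Csa1G392600, was 2-fold higher over that step, where 10.9% of all genes were. The median step was then -1.68 in peel and -1.21 in flesh. Both steps use the same day 6 libraries, so a low or high day 6 library moves them in opposite directions.

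Peel was compared with flesh in the same model. The median member difference, peel minus flesh, was 0.02 over the 3 days, with 16 members positive and 15 negative, and its sign turned under several other settings. The limma test called no member, where 0.261% of all genes were called, and at an unadjusted p under 0.05 it gave 1 member higher and 1 lower in peel, where 25.3% of all genes passed either way. The test in edgeR called no member (1.45% of all genes), and DESeq2 called those 2 members (17.3% of all genes).

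These 2 were an H2B and an H1 gene. Csa6G448180 (H2B) had higher FPKM in peel than in flesh at every day, by log2 differences of 0.62, 1.16 and 0.54 at days 3, 6 and 9, and the fit gave 0.77 ± 0.20 (SE, limma, adjusted p = 0.124). At day 9, however, its peel value lay below the flesh values of days 3 and 6, so the tissues overlap. Csa6G505280 (H1) was lower in peel at every day, by -0.47, -0.82 and -1.40, and the fit gave -0.90 ± 0.25 (limma, adjusted p = 0.134). It was the only member whose 3 peel values lay below all 3 flesh values, as 12.8% of all genes did, and no member had the reverse, as 11.8% did.

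The next members in this order had smaller differences. Csa6G191580 (H4) had 79.4, 112 and 32.9 FPKM in peel at days 3, 6 and 9, beside 75.4, 61.4 and 22.2 FPKM in flesh, a peel minus flesh difference of 0.49 ± 0.21 (SE, limma, adjusted p = 0.24). The abundant H3 gene Csa4G026900 was at 0.36 ± 0.21 (limma, adjusted p = 0.334). On the other side, Csa1G132680 (H2B) was at -0.32 ± 0.16 (limma, adjusted p = 0.297) and Csa6G193590 (H4), with 87.2, 87.5 and 19.7 FPKM in peel, against 85.8, 101 and 31.7 FPKM in flesh, at -0.28 ± 0.20 (limma, adjusted p = 0.426). Single libraries moved some of these values. Csa6G193590 went to -0.09 without either day 9 library and to -0.43 without either day 3 library, and Csa6G191580 to 0.31 without either day 6 library. At single days no member differed 2-fold between tissues at day 3, where 12.2% of all genes did. At day 6 only Csa6G448180 was 2-fold higher in peel, as were 12.9% of all genes, and at day 9 only Csa6G505280 was 2-fold lower, as were 13.6%. The median over the members, peel minus flesh, ran 0.14, 0.13 and -0.35 over the 3 days. At day 3, 7 of the 31 members were lower in peel, where 8540 of the 17265 genes were. At day 9, 24 members were lower in peel, where 9254 genes were.

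A model with a slope over days in each tissue asked whether the course differed. It called no gene (0%) in limma or edgeR and no member in DESeq2, which called 2.11% of all genes. At an unadjusted p under 0.05 no member passed in limma, where 8.72% of all genes did. Departures from a straight line count as error here, and most members were near level to day 6 and lower at day 9. The median standard error of the slope difference was 0.16 for the members, against 0.10 over all genes. A difference of a given size was thus harder to detect in the members. The smallest p among the members was 0.226 before adjustment (limma, adjusted p = 0.843), for Csa6G505280 with a peel minus flesh slope of -0.15 ± 0.11 per day. Differences of this size between the tissues were therefore not detectable in these 6 libraries.

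Histone genes were found on chromosomes 1, 2, 3, 4, 6 and 7, with 8, 4, 2, 3, 11 and 4 genes in that order. Positions are as deposited, and their genome build was not given in the sources used here. Among the members 11 lay within 20 kb of another, in 3 groups. On chromosome 6, from 12549074 to 12587416, the H4 genes Csa6G191570, Csa6G191580, Csa6G192080, Csa6G193580 and Csa6G193590 and the H2B gene Csa6G193620 lay within 38.3 kb, with 2 other genes among them. On chromosome 1, from 9427335 to 9452806, the H2B genes Csa1G132130, Csa1G132150 and Csa1G132680 lay within 25.5 kb, with 4 other genes among them. On chromosome 7, from 14669024 to 14671494, the H2A genes Csa7G390230 and Csa7G390240 were direct neighbours, 196 bases apart.

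**Figure D4:**
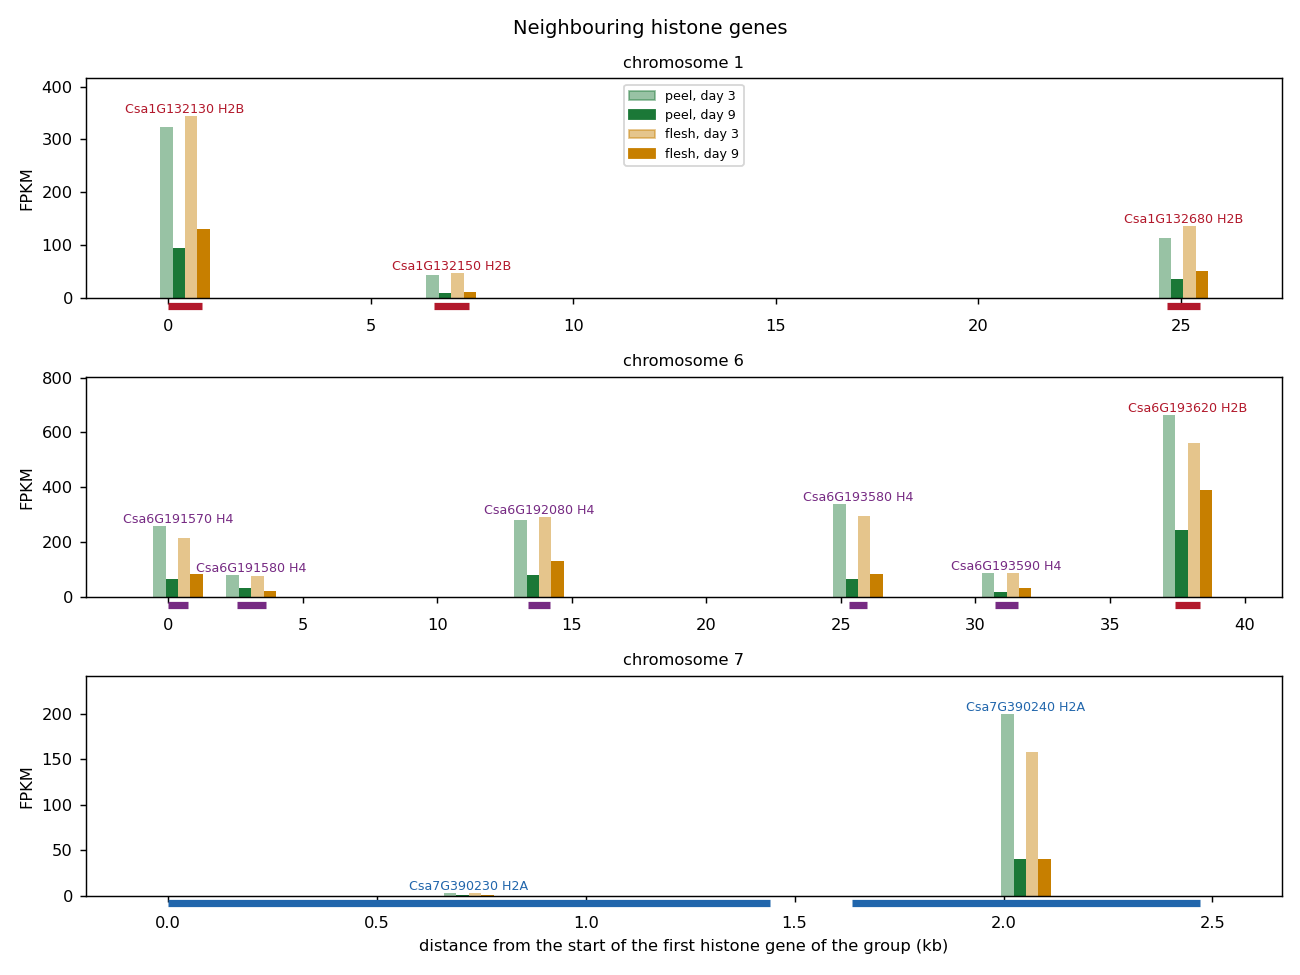
FPKM of the neighbouring histone genes at day 3 (pale bars) and day 9 (dark bars) in peel (green) and flesh (orange), each set of bars centred on its gene, with distance in kb from the start of the first gene of the group and thick lines for the gene models. On chromosome 7 Csa7G390240 averages 135 FPKM and its neighbour Csa7G390230 2.22 FPKM.

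Neighbours were not alike in level, as the plot of neighbouring genes shows. In the group on chromosome 6, Csa6G192080 had 281, 261 and 80.9 FPKM in peel at days 3, 6 and 9, beside 293, 245 and 132 FPKM in flesh. Csa6G191570 had 257, 264 and 65 FPKM in peel, against 216, 208 and 83.3 FPKM in flesh. Mean levels in that group ran between 63.9 and 498 FPKM. Day 9 minus day 3 ran between -2.32 and -1.24 in peel and between -1.80 and -0.53 in flesh, with the H2B gene Csa6G193620 at the flesh end of -0.53. On chromosome 1, Csa1G132150 had 44, 51 and 10.2 FPKM in peel, beside 46.6, 42 and 10.7 FPKM in flesh, and the 3 genes lay between -2.01 and -1.65 in peel and between -2.02 and -1.38 in flesh. On chromosome 7, Csa7G390240 had 200, 223 and 40.1 FPKM in peel, against 158, 145 and 40.8 FPKM in flesh. Its neighbour Csa7G390230 had 2.85, 3.17 and 0.735 FPKM in peel, beside 2.54, 2.81 and 1.24 FPKM in flesh. In every one of the 11 genes both day 9 values lay below all earlier ones. Reads of near-identical copies could have been assigned to either copy, so levels of neighbours of 1 class are uncertain, and no member shared its locus with another gene of the table.

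Lists of genes that act with histones were read from the same fits. They were matched by product name, and in none of them did limma call a gene between day 9 and day 3. Their counts stand against 13.6% of all genes lower in limma at an unadjusted p under 0.05, and 8.45% called lower by DESeq2. Higher at day 9 were 1949 of the 17265 genes in limma at that threshold, and DESeq2 called 1371 higher. Of DNA replication factors, which copy the DNA that new histones package, 51 of 55 were tested. Their median day 9 minus day 3 difference was -1.09, with 38 lower and none higher at an unadjusted p under 0.05, and DESeq2 called 27 lower. Ribonucleotide reductase supplies the deoxynucleotides for DNA synthesis. Its small-chain gene Csa3G597320 had 88.9, 77.5 and 20.1 FPKM in peel at days 3, 6 and 9, against 93.8, 137 and 57.1 FPKM in flesh. Csa6G486750, also of ribonucleotide reductase, had 42.8, 38.6 and 9.74 FPKM in peel, beside 50.7, 52.5 and 22.4 FPKM in flesh. Both were lowest at day 9, but the day 9 flesh value of each lay above its day 9 peel value.

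Mitosis genes, among them cyclins A, B and D, kinesins and aurora kinases, had a median difference of -1.69 over 84 of 90 genes, with 58 lower and 1 higher at an unadjusted p under 0.05. DESeq2 called 53 of them lower. Not all followed: the most abundant, the kinesin-like gene Csa4G538080, had 47, 68.3 and 54.6 FPKM in peel, against 47.9, 67.3 and 97.7 FPKM in flesh. Csa6G306320, another kinesin gene, had 48.8, 58.1 and 63.1 FPKM in peel, beside 62.2, 69.1 and 51.1 FPKM in flesh. Kinesins are motor proteins, and many act outside of division.

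**Figure D5:**
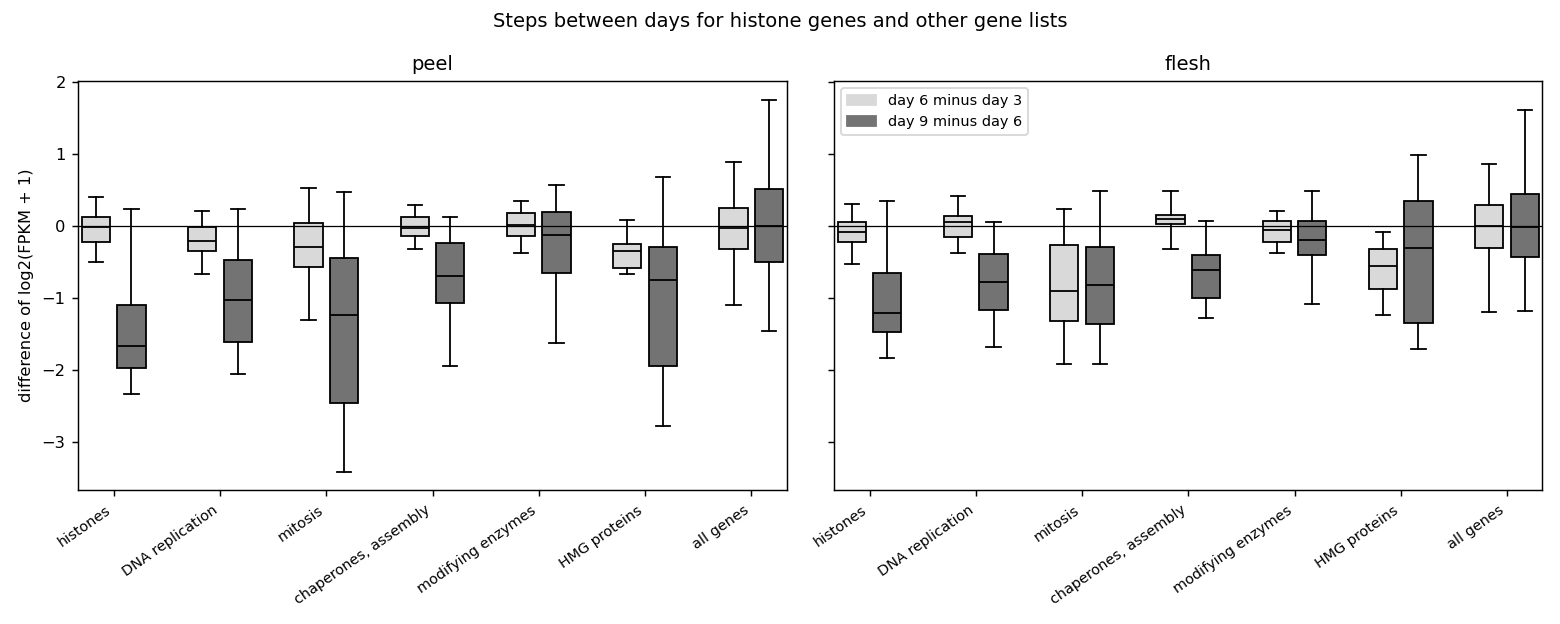
Step from day 3 to day 6 (pale) and from day 6 to day 9 (dark) on the log2(FPKM + 1) scale for histone genes, other gene lists and all tested genes, in peel (left) and flesh (right), with boxes for the quartiles and median and whiskers for the 5th and 95th percentiles over genes. In flesh the day 3 to day 6 median was -0.91 for mitosis, 0.05 for DNA replication and -0.08 for histones.

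The lists differed in when they were lower, as the plot of the steps by list shows. In flesh between days 3 and 6, 36 of the 84 mitosis genes were at least 2-fold lower, with a median step of -0.91. No DNA replication gene and no histone gene was, with medians of 0.05 and -0.08. Of all 17265 tested genes 1167 were 2-fold lower in flesh over that step, and 1043 in peel. In peel 9 mitosis genes and 2 of the 51 DNA replication genes were, with medians of -0.29 and -0.21, against no histone gene and -0.01. Between days 6 and 9 the medians in peel were -1.24 for mitosis, -1.03 for DNA replication and -1.68 for histones. In flesh they were -0.83 for mitosis, -0.78 for DNA replication and -1.21 for histones. The difference between the lists was not tested, since each step rests on 1 library per day.

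Histone chaperones, which carry histones to and from DNA, had a median day 9 minus day 3 difference of -0.48 over 11 genes, with 5 lower and none higher at an unadjusted p under 0.05, and DESeq2 called 5 lower. The most abundant, the nucleosome assembly protein gene Csa2G000400, had 220, 215 and 214 FPKM in peel, against 262, 446 and 310 FPKM in flesh, close to level over the days in peel and highest at day 6 in flesh. The histone-binding protein gene Csa1G588520 had 52.5, 41.8 and 23.7 FPKM in peel, beside 71.6, 72 and 45 FPKM in flesh, lowest at day 9 in each tissue.

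Of 53 tested genes for histone-modifying enzymes 8 were lower and 1 higher at day 9 at an unadjusted p under 0.05, where 13.6% of all genes were lower. Their median was -0.12, against 0.01 over all genes, and DESeq2 called 6 lower, where it called 8.45% of all genes lower. The histone deacetylase gene Csa6G150540, whose product removes acetyl groups from histones, had 110, 85.5 and 25.8 FPKM in peel, against 117, 153 and 59.3 FPKM in flesh. The gene Csa4G615750, named lysine-specific histone demethylase 1, had 85.6, 80.8 and 126 FPKM in peel, beside 57.9, 43.1 and 85.8 FPKM in flesh, highest at day 9 in both tissues.

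High mobility group proteins, small proteins that bind and bend DNA, had a median of -0.98 over 10 of 11 genes, with 6 lower and 1 higher at an unadjusted p under 0.05. DESeq2 called 5 lower and 1 higher. The 2 most abundant were less far down: Csa3G002290 had 348, 275 and 215 FPKM in peel, against 261, 154 and 207 FPKM in flesh. Csa4G663680 had 355, 219 and 251 FPKM in peel, beside 212, 112 and 182 FPKM in flesh. In flesh both were lowest at day 6. The 6 genes for cell cycle exit and endocycles had a median of -0.41, with 3 lower at an unadjusted p under 0.05. The cyclin-dependent kinase inhibitors Csa2G138190 and Csa3G131960 were at 0.09 ± 0.31 and -0.29 ± 0.22 (SE, limma, adjusted p = 0.877 and 0.45).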

How the data were processed

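Peel and flesh of 3 fruits were mixed per library, and mRNA was isolated and rRNA removed from total RNA, per the labels' protocols. The tools were Cufflinks 2.1.1 and TopHat (no version), per the submitters' processing notes. Which genome build, annotation and strand setting were used was not given in the sources used here. The deposited table holds FPKM per gene and library, per the file headers, and columns headed as counts. These values are whole numbers times 1 step per library, so they were read as a signal the authors made by scaling read counts. Dividing by the step gave whole reads (within 0.05) for 99.8% to 100% of values. No sample column of the table was left unused. The labels give 1 library per tissue and day and no replicate. The error behind each p-value therefore comes only from departures from additive tissue and day effects. In the slope model it comes from departures from a straight line over days in each tissue.

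The 17265 genes that averaged 1 FPKM or more were fitted on log2(FPKM + 1) with limma 3.58.1 (R 4.3.3; tissue plus day as a factor, 2 residual degrees of freedom, intensity trend, two-sided, Benjamini-Hochberg, adjusted p under 0.05), which understates changes of low genes. The planned design named edgeR where the table held whole counts. It did not as deposited, so edgeR 4.0.16 and DESeq2 1.42.0 on recovered reads were added as alternatives after the data were seen. Fits were tested on simulated data. Members and lists were chosen with earlier results of these data known. Named by rule were, in each class, the 3 most abundant members and those with the lowest and highest day 9 minus day 3 difference, then the 3 lowest and 3 highest for peel minus flesh, members within 20 kb, and the 2 most abundant genes of each pathway list. Others were named after their values were seen. Intervals (95%) cover counting error only. The annotation table at hand matched none of the gene identifiers and was not used.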

Additional observations from a re-analysis of the deposited data

Results flagged for a closer look

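The linker histone gene Csa6G505280 was the only histone gene whose day 9 minus day 3 difference had opposite signs in the 2 tissues, at -0.24 in peel and 0.69 in flesh on the log2(FPKM + 1) scale. Opposite signs were found in 32.7% of all tested genes. The 2 differences rest on 1 library per tissue and day. With days 3, 6 and 9 evenly spaced, the slope model compares these same 2 differences, and the day 6 libraries enter only its error. The slopes over days differed by -0.15 ± 0.11 per day (SE, limma, adjusted p = 0.843), so the test did not separate the tissues.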

How the results depend on the processing

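No pairing beyond tissue and day was possible, because the labels give no replicate numbers and each tissue and day has 1 library. The fit reported already compares tissues within days and days within tissues. For day 9 against day 3 the member median stayed between -1.7 and -1.36 under the other settings and between -1.52 and -1.1 with 1 library left out, -1.10 without peel day 9. Members called were 12 and genes called 538 after rescaling to the same sum, and 24 and 2830 with DESeq2. Genes called, 0 in the fit reported, were 4 with a pseudocount of 0.1, 8 at a mean of at least 5 FPKM, 4 after quantile normalization, 320 with day as a number and 25 with edgeR under either scaling. Fits with 1 library left out have fewer residual degrees of freedom than the 2 of the fit reported. Their counts of genes called are therefore not set beside these. The difference of Csa6G505280 turned to -0.02 after rescaling to the same sum, -0.10 without flesh day 3 and -0.15 without flesh day 9, and that of Csa2G369110 to 0.01 without peel day 3. Over the libraries left out these 2 ran between -0.15 and 0.60 and between -0.18 and 0.01. Counts at 2-fold depended on the bound: at 4-fold 7 members were lower in peel, 2 lower in flesh and 0 higher in flesh, and the single member 2-fold higher in flesh gave 0 with a pseudocount of 5 and 0 at a mean of at least 5 FPKM.

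For peel against flesh the member median ran between -0.1 and 0.03 under the other settings and between -0.09 and 0.13 with 1 library left out, and DESeq2 called 2 members. Genes called, 45 in the fit reported, were 0 with any 1 library left out, 167 with a pseudocount of 0.1, 0 with a pseudocount of 5, 0 without a filter, 206 after rescaling to the same sum, 209 after quantile normalization, 0 without an intensity trend, 120 without a day term, 475 with day as a number, 251 with edgeR, 275 with edgeR under DESeq2 size factors and 2992 with DESeq2. For the slopes the member median, -0.08 in the fit reported, ran between -0.35 and 0.18 with 1 library left out (-0.35 without peel day 3, 0.11 without flesh day 3, 0.18 without peel day 9), and DESeq2 called 364 genes. The cause of these shifts was not tested. With 2 residual degrees of freedom and no replicates, a test that misses its threshold does not show that levels were equal. Fits with 1 library left out have fewer still, so 0 genes called there does not show that the calls rested on 1 library. Rescaling to the same sum also moved the median over all genes to -0.22 for day 9 against day 3 and to -0.11 for peel against flesh.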

Other observations

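Some genes carry histone words or domains without being named as one of the 5 classes. The 2 genes named "Single myb histone" stood at or above their day 3 level at day 9 in both tissues: Csa6G495710 had 36.7, 35.1 and 50.9 FPKM in peel at days 3, 6 and 9, against 34.6, 26.1 and 35.4 FPKM in flesh, and Csa4G000700 had 17.4, 18.3 and 19.3 FPKM in peel, beside 14.2, 13.5 and 28 FPKM in flesh. Their day 9 minus day 3 differences were 0.25 ± 0.21 and 0.54 ± 0.30 (SE, limma, adjusted p = 0.499 and 0.333). Csa4G114210, named micronuclear linker histone polyprotein, had 10.1, 7.16 and 11 FPKM in peel, against 10.2, 7.99 and 8.33 FPKM in flesh. Of 11 genes whose description lists a linker histone domain but no histone name, 4 averaged 1 FPKM or more. Csa7G071600, named cyclin A-like protein, had 4, 3.49 and 0.431 FPKM in peel, beside 4.46, 2.81 and 0.543 FPKM in flesh, a difference of -1.82 ± 0.30 (limma, adjusted p = 0.0677). Csa2G365130, named as a DnaJ domain protein, had 5.22, 3.7 and 2.11 FPKM in peel, against 8.39, 6.77 and 2.98 FPKM in flesh. Csa6G092520, an unknown protein, was highest at day 9, with 1.69, 2.8 and 3 FPKM in peel, beside 0.458, 0.621 and 1.1 FPKM in flesh. Its difference was 0.55 ± 0.33 (limma, adjusted p = 0.36). Csa5G381790, also unknown, had 1.67, 1.57 and 0.768 FPKM in peel, against 2.04, 2.75 and 2.36 FPKM in flesh. Its difference was -0.22 ± 0.35 (limma, adjusted p = 0.714). Transcription factors with a histone-like fold, 19 of 24 tested, had a median day 9 minus day 3 difference of -0.03, where the named histones had -1.46. These genes were listed with results of these data known.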
